A study of Homo sapiens with 4 samples.

Results

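The G1 cyclins CCND2, CCND3, CCNE1 and CCNE2, their kinases CDK2, CDK4 and CDK6, the brake RB1, the transcription factor E2F1 and its target MYBL2 were followed in Jurkat cells with and without knockdown of LEF1. Every probe set annotated to 1 of these 10 genes was taken, which gave 26 of the 54613 probe sets tested and 10 of 19775 genes, with 1 to 7 per gene. Jurkat is a human T-cell acute lymphoblastic leukemia line. The cells were transfected with 100 nM of a pool of siRNAs against LEF1 (siLEF1) or with 100 nM of a non-targeting pool (siNT), both delivered with the same reagent, and RNA was taken 24 h later. Each group had 2 arrays, which the labels call biological replicates. The limma p-values rest on the spread within these pairs (2 degrees of freedom) and on a spread estimated from all probe sets (4.30 degrees of freedom). The study used 1 cell line, and its non-transfected cells were not analysed here.

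In G1, D-type cyclins (CCND2 and CCND3 in lymphoid cells) switch on CDK4 and CDK6, which begin to phosphorylate the retinoblastoma protein RB1. RB1 then releases E2F factors such as E2F1, and these transcribe the E-type cyclins, further E2F1 and the genes of DNA synthesis. Cyclin E with CDK2 completes the phosphorylation of RB1 and starts S phase. MYBL2 (B-Myb) is made under E2F control and joins the MuvB complex, which turns on genes of G2 and mitosis. In thymocytes and T-cell leukemia, cyclin D3 and CDK6 are known drivers of this step, and LEF1 is a T-cell transcription factor downstream of Wnt signaling.

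For 7 of the 10 genes the RefSeq promoter sequences (GRCh38.p14) gave 10 windows, each from 250 bases before to 50 bases after an annotated start. The windows of E2F1 and MYBL2 are printed because both genes are textbook E2F targets and they were the windows with E2F-type letters. The E2F1 window is chr20:33686336-33686635 on the minus strand and the MYBL2 window chr20:43666864-43667163 on the plus strand. Both read 5′ to 3′ along the gene, and capitals mark the E2F-type letters described after them.
E2F1: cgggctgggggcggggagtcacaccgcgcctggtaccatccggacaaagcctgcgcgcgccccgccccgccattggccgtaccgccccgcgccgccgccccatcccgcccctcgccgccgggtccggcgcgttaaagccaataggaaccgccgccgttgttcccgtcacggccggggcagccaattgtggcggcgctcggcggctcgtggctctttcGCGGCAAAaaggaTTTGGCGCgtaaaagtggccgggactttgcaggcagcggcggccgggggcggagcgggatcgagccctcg
MYBL2: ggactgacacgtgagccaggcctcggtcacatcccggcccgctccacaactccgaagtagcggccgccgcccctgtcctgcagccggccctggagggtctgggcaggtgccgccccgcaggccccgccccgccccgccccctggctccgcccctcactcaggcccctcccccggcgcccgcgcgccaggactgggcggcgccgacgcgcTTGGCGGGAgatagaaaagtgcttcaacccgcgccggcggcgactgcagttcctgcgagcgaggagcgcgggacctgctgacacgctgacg

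Windows were searched on both strands for the E2F letters TTTCCCGC, TTTGGCGC, TTTCGCGC and TTTGCCGC. The E2F1 window held TTTGGCGC at -20 to -13 from the start and TTTGCCGC on the opposite strand at -33 to -26. The other 9 windows of these genes held none of the 4, but that of RB1 lies well inside the annotated gene, at an alternative start, so that the main RB1 promoter was not searched. Of all 35116 windows of this kind, 3.31% held at least 1. The MYBL2 window held TTGGCGGGA at -41 to -33, letters that were added to the search after the sequence had been seen and that 0.31% of all windows hold. Neither the cell cycle letters TTTGAA, in 15.2% of all windows, nor the LEF1/TCF letters CTTTGA, in 12.9%, were found in any of the 10 windows. TTTGAA and CTTTGA can overlap each other. These are matches of letters within 300 bases and say nothing of binding.

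**Figure D1:**
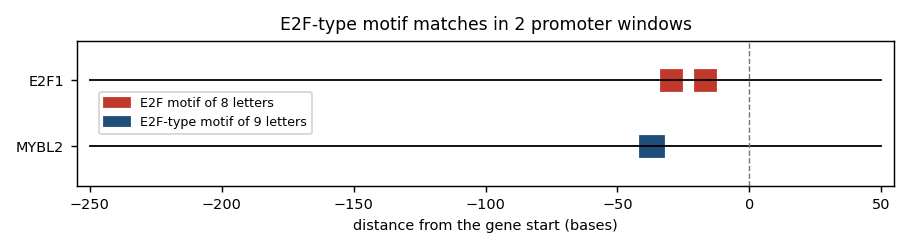
Matches of E2F-type letters in the promoter windows of E2F1 and MYBL2, by distance from the gene start in bases (horizontal axis, dashed line at the start). The 2 boxes of E2F1 span -33 to -26 and -20 to -13, and the box of MYBL2 spans -41 to -33.

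Signals are RMA values on the log2 scale, and differences are given as siLEF1 minus siNT. LEF1 itself, by its brightest probe set, had signals of 11.24 and 11.56 (siLEF1) and 12.30 and 11.92 (siNT), a log2 fold change of -0.71 (standard error, SE, 0.20, with limma adjusted p = 0.191). Of the T-cell marker genes 12 of 13 lay above the median of every array, as did 12311 of all 19775 genes. So did 1 of 6 myeloid markers, 3 of 5 B-cell, 3 of 4 erythroid and 4 of 8 epithelial and stromal markers. The 4 arrays had nearly equal medians, 4.84 to 4.85, but siNT replicate 2 stood apart for bright T-cell genes: the mean signal of the T-cell markers was 8.99 there and 9.39 to 9.45 on the other arrays. RNA quality differed as well, with a 5' minus 3' signal of ACTB of -1.08 and -1.55 (siLEF1) against -1.80 and -1.95 (siNT), and of GAPDH of -0.34 and -0.32 against -0.39 and -0.65. The part of RNA quality in the differences below was not tested. In bulk RNA, a change in the share of cells in G1 or S phase and a change in RNA per cell cannot be told apart.

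None of the 26 probe sets passed the thresholds of an adjusted p under 0.05 from limma and a fold change over 2, which 0.207% of all probe sets passed (0.183% lower and 0.0238% higher). At an unadjusted p under 0.05 from limma there were 9 of the 26 (34.6%), 7 higher and 2 lower in siLEF1 cells. The share over all probe sets was 15.6% (6.85% higher and 8.79% lower). It depended on brightness, with 27.6% among the 13653 brightest probe sets and 6.51% among the 27307 dimmer than the median. Of the 26, 13 were among these brightest probe sets, and 20 lay above the median of every array. The comparison with 15.6% therefore does not allow for brightness. An F test without moderation of the variances also called 0 and had 2 of the 26 at an unadjusted p under 0.05, where 8.04% of all probe sets did. With siNT replicate 2 left out there were 4, where 11.4% of all did. The log2 fold changes ran from -0.74 to 1.28 with a median of 0.29, while the median of all probe sets was 0.04. Of the 26 values 22 were above 0, as were 56.7% of all probe sets, and only 2 exceeded 2-fold, a CDK6 and a CCNE2 probe set. The 95% confidence intervals had a median of 0.49 on either side of the estimate, and 18 of the 26 lay wholly within a 2-fold change in either direction.

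Both siLEF1 arrays lay above both siNT arrays in 14 probe sets (53.8%) and below them in 4 (15.4%). Of all probe sets 27.4% and 21.2% did so (48.6% in either direction), and of the 13653 brightest 36.1% and 32.6%. The pattern of the 26 moved with 1 control array. siNT replicate 2 had the lowest signal of the 4 arrays in 18 of the 26 (69.2%), against 33.2% of all probe sets. It lay under siNT replicate 1 in 22 of the 26, where 48.6% of all probe sets and 60.1% of the 13653 brightest did. The reason why this array was low was not tested. The median distance between the siNT replicates was 0.45 over the 26 and 0.21 over all probe sets, while that between the siLEF1 replicates was 0.11 and 0.15. Among the 13653 brightest probe sets these distances were 0.25 for siNT and 0.09 for siLEF1. With siNT replicate 1 as the only control, the median difference was 0.14 in place of 0.29, 16 values were above 0, and the siLEF1 arrays lay above the control in 15 probe sets (57.7%, where 42.7% of all did) and below it in 9 (34.6%, where 30.8% did). Against siNT replicate 2 alone the median was 0.58, and 3 probe sets were called higher (1.09% of all were), those of CDK6 (224851_at and 224848_at) and MYBL2, with the lone array taken to vary like the other group. With each array centred on the median signal of its housekeeping genes, every log2 fold change moved by -0.26. This took the median of all probe sets to -0.22. The centring went past 0 for the housekeeping genes themselves, whose median difference over 16 genes moved from 0.08 to -0.18. Counts with it therefore rest on a shift larger than the median difference of these genes. With this centring 15 of the 26 values stayed above 0, where 19% of all did. Without overlap 5 probe sets were higher, where 5.31% of all were, and 6 were lower, where 54.6% were.

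**Figure D2:**
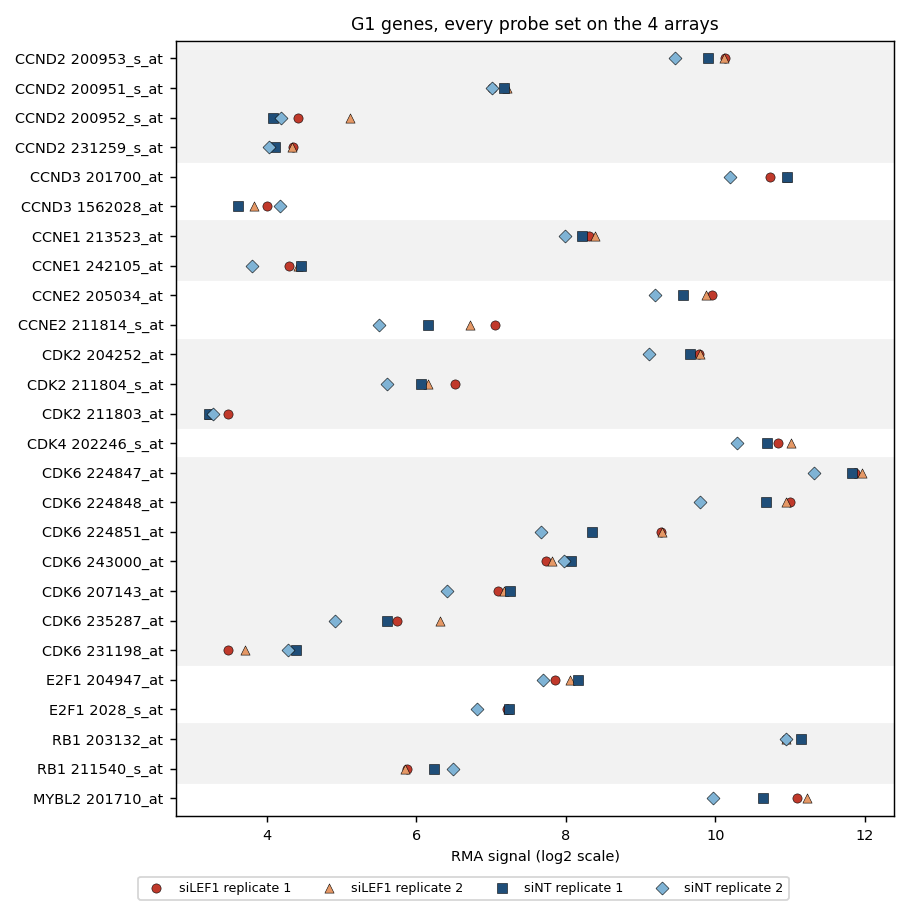
Signals (log2 RMA, horizontal axis) of all 26 probe sets of the 10 genes, 1 row each, with 1 symbol per array. Some symbols lie over each other. siNT replicate 2 has the lowest value in 18 rows, and in 14 rows both siLEF1 symbols lie to the right of both siNT symbols.

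CCND2 was read by 4 probe sets. The brightest, 200953_s_at, had signals of 10.13 and 10.11 (siLEF1) and 9.90 and 9.45 (siNT). The siLEF1 arrays lay above both controls by at least 0.21, and the log2 fold change was 0.44 (SE 0.19, limma adjusted p = 0.337), or 0.22 against siNT replicate 1 alone. Probe set 200951_s_at overlapped, with 7.02 and 7.21 (siLEF1) and 7.17 and 7.02 (siNT). The dim 200952_s_at gave 4.42 and 5.12 against 4.08 and 4.19, a log2 fold change of 0.63 in which the siLEF1 replicates differed by 0.70 and which was 0.28 without siLEF1 replicate 2. In 231259_s_at, which lay under the median of every array, the signals were 4.36 and 4.34 against 4.11 and 4.03. Thus 3 of the 4 CCND2 probe sets were higher without overlap, and with housekeeping centring the value of 200951_s_at turned from 0.02 to -0.24.

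CCND3, the D-type cyclin that early thymocytes depend on, had a bright probe set, 201700_at, with 10.73 and 10.96 (siLEF1) and 10.96 and 10.20 (siNT). The groups overlapped, because siNT replicate 1 was as high as the higher siLEF1 array and siNT replicate 2 lay lowest. Its log2 fold change of 0.26 (SE 0.27, limma adjusted p = 0.696) became -0.12 against siNT replicate 1 alone. The second CCND3 probe set, 1562028_at, was dim on every array and overlapped, with 4.01 and 3.83 against 3.61 and 4.17.

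CDK4, a partner of the D-type cyclins, had 1 probe set, 202246_s_at, with signals of 10.84 and 11.01 (siLEF1) and 10.69 and 10.29 (siNT). Both siLEF1 arrays were higher, by 0.15 at the closest, and the log2 fold change was 0.43 (95% confidence interval -0.02 to 0.89, limma adjusted p = 0.342). Against siNT replicate 1 alone it was 0.23.

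CDK6, the other partner, had 7 probe sets, and they disagreed in direction. The largest difference among all 26 was that of 224851_at, with 9.27 and 9.29 (siLEF1) and 8.35 and 7.67 (siNT). Here the closest arrays of the groups were 0.92 apart, more than the 0.68 between the siNT replicates, and the log2 fold change was 1.28 (SE 0.24, 95% confidence interval 0.69 to 1.86, limma adjusted p = 0.103). It was 0.93 against siNT replicate 1 alone. The brighter 224848_at gave 10.9997 and 10.94 against 10.68 and 9.80, a log2 fold change of 0.73 that was 0.29 against siNT replicate 1 alone. The brightest, 224847_at, gave 11.86 and 11.96 against 11.82 and 11.32, so that siNT replicate 1 came within 0.04 of the siLEF1 arrays, and its log2 fold change of 0.34 was 0.09 against that control alone. Probe set 235287_at was also higher without overlap, with 5.75 and 6.31 against 5.61 and 4.92, a log2 fold change of 0.77 that was 0.42 against siNT replicate 1 alone.

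In 2 other CDK6 probe sets the siLEF1 arrays were the lower ones. In 231198_at the signals were 3.48 and 3.72 (siLEF1) and 4.39 and 4.29 (siNT), a log2 fold change of -0.74 (SE 0.16, limma adjusted p = 0.129). This probe set lay under the median of every array, and with housekeeping centring it had a log2 fold change of -1.005 and was called lower (limma adjusted p = 0.0374), as were 2.68% of all probe sets. In 243000_at the signals were 7.74 and 7.81 against 8.06 and 7.97, a log2 fold change of -0.24. The seventh, 207143_at, overlapped, with 7.10 and 7.18 against 7.25 and 6.41. The annotation used here does not place the probe sets along the CDK6 transcripts, and which transcript forms they read was not tested.

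**Figure D3:**
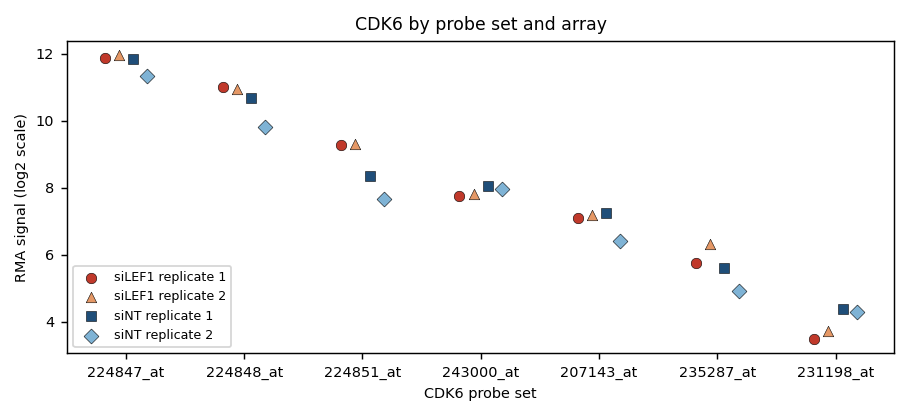
RMA signal on the log2 scale (vertical axis) of the 7 CDK6 probe sets (horizontal axis, ordered by mean signal) on each of the 4 arrays. In 224847_at, 224848_at, 224851_at and 235287_at both siLEF1 symbols lie above both siNT symbols, in 243000_at and 231198_at below them, and in 207143_at the groups overlap.

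RB1, which holds E2F factors in check until it is phosphorylated, was the gene in which neither probe set was above 0. In the bright 203132_at the signals were 10.95 on both siLEF1 arrays and 11.14 and 10.95 in siNT cells. The groups were separated there by less than 0.01, and the log2 fold change was -0.10 (95% confidence interval -0.47 to 0.27, limma adjusted p = 0.812). The dimmer 211540_s_at had 5.87 and 5.85 (siLEF1) against 6.24 and 6.49 (siNT). Its siLEF1 arrays lay 0.37 under the nearer control, a log2 fold change of -0.50 (SE 0.16, limma adjusted p = 0.221) that was -0.38 against siNT replicate 1 alone.

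E2F1, whose window carries the E2F letters printed above, showed no separation of the groups in either probe set. In 204947_at the signals were 7.85 and 8.05 (siLEF1) and 8.16 and 7.70 (siNT), so that both siLEF1 arrays lay between the controls. The log2 fold change was 0.02 (95% confidence interval -0.47 to 0.51, limma adjusted p = 0.974), and -0.21 against siNT replicate 1 alone. Probe set 2028_s_at gave 7.21 and 7.23 against 7.24 and 6.82, again with both siLEF1 arrays between the controls.

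The E-type cyclins bind CDK2 at the entry into S phase. For CCNE1, 213523_at gave 8.31 and 8.39 (siLEF1) and 8.21 and 7.98 (siNT), higher without overlap by 0.10 at the closest, with a log2 fold change of 0.26 (limma adjusted p = 0.503) that was 0.14 against siNT replicate 1 alone and -0.01 with housekeeping centring. The dim 242105_at of CCNE1 overlapped, with 4.29 and 4.41 against 4.46 and 3.80. CCNE2 was higher without overlap in both of its probe sets.

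In the bright CCNE2 probe set 205034_at the signals were 9.96 and 9.87 (siLEF1) and 9.56 and 9.19 (siNT), with a log2 fold change of 0.54 (SE 0.18, limma adjusted p = 0.241). In 211814_s_at they were 7.05 and 6.72 against 6.15 and 5.50, a log2 fold change of 1.06 (SE 0.25, 95% confidence interval 0.45 to 1.66, limma adjusted p = 0.148). These values were 0.35 and 0.73 against siNT replicate 1 alone, so that CCNE2 remained above the control in both. Whether CCNE2 differed from CCNE1 in its response was not tested.

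CDK2, the kinase of the E-type cyclins, gave 9.78 and 9.79 (siLEF1) and 9.66 and 9.11 (siNT) in 204252_at, its brightest probe set. The log2 fold change was 0.40 (SE 0.21, limma adjusted p = 0.427), and siNT replicate 1 came within 0.12 of the siLEF1 arrays. It was 0.13 against siNT replicate 1 alone and 0.68 against siNT replicate 2 alone. Probe set 211804_s_at gave 6.51 and 6.15 against 6.06 and 5.61 and was also higher without overlap, with a log2 fold change of 0.49 that was 0.27 against siNT replicate 1 alone. The dim 211803_at overlapped, with 3.49 and 3.22 against 3.22 and 3.29.

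MYBL2, read by 201710_at, had signals of 11.09 and 11.23 (siLEF1) and 10.64 and 9.97 (siNT). The siLEF1 arrays lay at least 0.45 above the controls, which themselves differed by 0.67. The log2 fold change was 0.86 (SE 0.24, 95% confidence interval 0.28 to 1.44), a 1.81-fold higher mean signal that did not pass (limma adjusted p = 0.186). Against siNT replicate 1 alone it was 0.52 and against siNT replicate 2 alone 1.19. MYBL2 had the largest value among the brightest probe sets of the 10 genes, of which 7 were higher without overlap, 1 was lower and 2 overlapped, where 28.1% and 26.4% of all genes were higher and lower. The median of these 10 values was 0.37, and it was 0.13 against siNT replicate 1 alone and 0.11 with housekeeping centring.

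**Figure D4:**
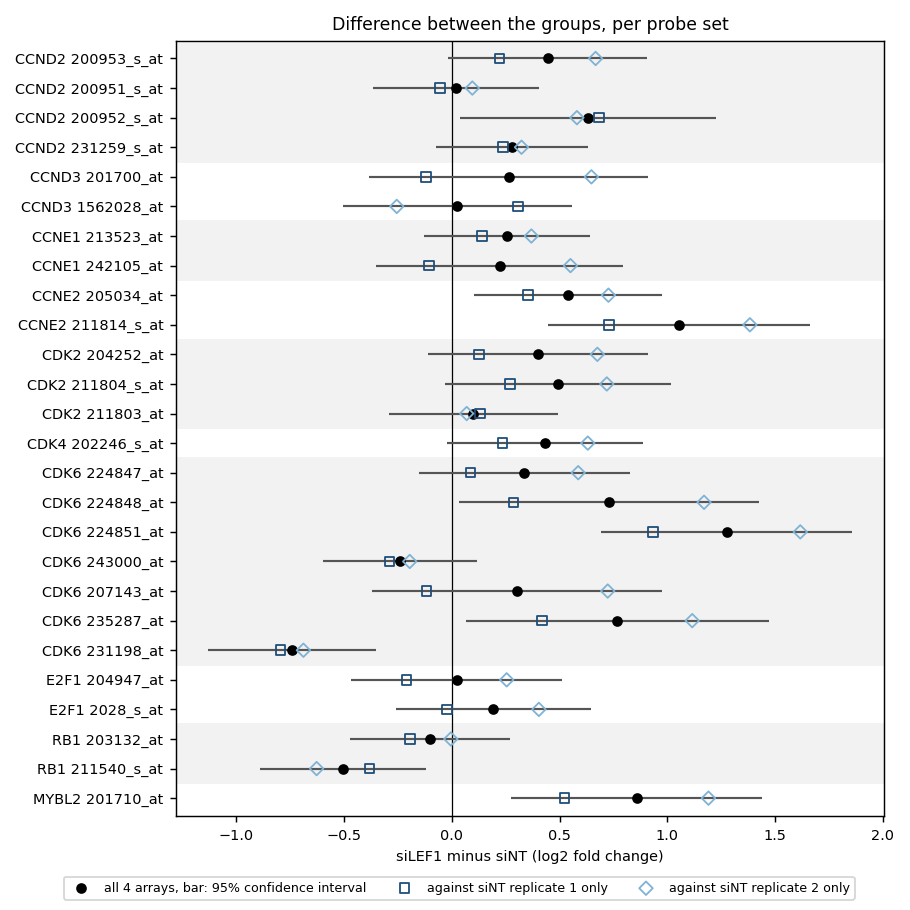
Log2 fold change siLEF1 minus siNT (horizontal axis) of the 26 probe sets, with filled circles and bars for all 4 arrays and their 95% confidence intervals, and open squares and diamonds for siNT replicate 1 or 2 as the only control. The interval lies above 0 in 7 rows and below 0 in 2 rows, and the squares are mostly nearer to 0 than the diamonds; with centring on housekeeping genes every value would lie 0.26 further left.

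The surrounding pathway was described with 1 probe set per gene, the brightest. Over all 19775 genes, 0.263% were lower and 0.0657% higher at an adjusted p under 0.05 from limma, 11.5% were lower and 7% higher at an unadjusted p under 0.05, and the median log2 fold change was 0.02. No gene of the pathway lists passed at an adjusted p under 0.05. With housekeeping centring 1 CDK inhibitor, 1 MuvB or MYB gene and 1 of the other cyclins were lower at that threshold, as were 4.84% of all genes. Without siNT replicate 1 there were 1 S phase gene and 1 upstream gene higher, where 1.07% of all genes were, and 1 gene of CDK activation and 1 MuvB or MYB gene lower, where 2.89% were. At an unadjusted p under 0.05, 28.1% of all genes were lower and 1.28% higher with housekeeping centring. In the 6 pathway lists with a median above that of all genes, siNT replicate 2 again lay under replicate 1, by a median of 0.43 for E2F and DP factors, 0.51 for S phase genes, 0.47 for upstream genes, 0.17 for CDK activation, 0.11 for mitotic genes and 0.10 for MuvB and MYB genes.

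Among 11 pocket proteins, E2F and DP factors, 4 were higher and 0 lower at an unadjusted p under 0.05, and the median was 0.31. TFDP1, a dimerization partner of E2F factors, had a log2 fold change of 0.56, and TFDP2 one of 0.41. The repressor E2F7 had one of 0.59 and E2F5, which pairs with pocket proteins, one of 0.46. The median of this list was 0.05 against siNT replicate 1 alone and 0.04 with housekeeping centring. The 4 became 0 with that centring, where 1.28% of all genes were higher. Against siNT replicate 2 alone the median was 0.51, and it was 0.30 and 0.28 without siLEF1 replicate 1 and 2.

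E2F targets of G1/S and S phase had 6 of 23 genes higher and 0 lower at an unadjusted p under 0.05, and 17 higher without overlap, where 28.1% of all genes were. The median was 0.35, and it was 0.16 against siNT replicate 1 alone and 0.09 with housekeeping centring. The 6 became 0 with that centring, where 1.28% of all genes were higher. Against siNT replicate 2 alone the median was 0.65, and it was 0.38 without either siLEF1 array. Thymidine kinase TK1 had signals of 8.86 and 8.94 (siLEF1) and 8.48 and 7.65 (siNT), a log2 fold change of 0.84 (limma adjusted p = 0.236). The replication genes GINS2 and MCM7 had values of 0.63 and 0.52, and UHRF1, which maintains DNA methylation, one of 0.50. For CDC6 and PCNA, the loader of the replicative helicase and the polymerase clamp, the values were 0.04 and 0.09.

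Downstream of MYBL2, 17 genes of G2 and mitosis had a median of 0.19, with 3 higher and 1 lower at an unadjusted p under 0.05. CENPF, CCNF and AURKB had log2 fold changes of 0.64, 0.55 and 0.53, and the centrosomal kinase gene NEK2 one of -0.37. This median was 0.16 against siNT replicate 1 alone and -0.07 with housekeeping centring. None of the 17 was higher at that p with that centring, where 1.28% of all genes were. The list of the MuvB core and the MYB family had 8 genes, with FOXM1 counted among them. Of these 8, 2 were lower and 2 higher at an unadjusted p under 0.05, and FOXM1 was 1 of the 2 higher. With housekeeping centring 3 were lower and 0 higher, where 28.1% and 1.28% of all genes were. The median of these 8 genes was 0.09, and it was -0.01 against siNT replicate 1 alone. LIN37, a MuvB subunit, had the largest difference of these lists, with 8.30 and 8.35 (siLEF1) and 9.67 and 10.16 (siNT), a log2 fold change of -1.59 (SE 0.20, limma adjusted p = 0.0562). LIN9, another subunit, had one of -0.46, and the transcription factors MYB and FOXM1 had values of 0.59 and 0.59.

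CDK inhibitors were the pathway list with the lowest median, -0.27 over 7 genes, with 3 lower and 0 higher at an unadjusted p under 0.05. This median was -0.22 against siNT replicate 1 alone and -0.41 against siNT replicate 2 alone. Without siLEF1 replicate 1 and 2 it was -0.12 and -0.41. With housekeeping centring it was -0.53, with 4 genes lower and 0 higher, where 28.1% and 1.28% of all genes were. CDKN1B (p27), which restrains cyclin E with CDK2, gave 10.60 and 10.39 (siLEF1) and 11.02 and 11.68 (siNT), a log2 fold change of -0.86 (limma adjusted p = 0.191), while CDKN1A and CDKN2D had values of -0.56 and -0.53. Against siNT replicate 1 alone these 3 values were -0.52, -0.46 and -0.65. The median of siNT replicate 1 minus replicate 2 was -0.19 in this list, so that replicate 2 mostly lay higher here. Of 16 genes of CDK activation and cyclin turnover, 1 was higher and 3 were lower at an unadjusted p under 0.05. Their median was 0.16, and it was 0.03 against siNT replicate 1 alone and 0.20 against siNT replicate 2 alone. With housekeeping centring it was -0.10, where the median of all genes was -0.24, and 11 of the 16 values were below 0. SKP2, which marks CDKN1B protein for destruction, gave 11.14 and 11.06 against 10.47 and 10.09, a log2 fold change of 0.82 (limma adjusted p = 0.135). CDK7 and CCNH, of the CDK-activating kinase, had values of -0.88 and -0.45, and AMBRA1, which targets D-type cyclins for turnover, one of -0.49. Against siNT replicate 1 alone SKP2 had a value of 0.62, and CDK7, CCNH and AMBRA1 had -0.51, -0.32 and -0.24.

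Of 9 other cyclins and cyclin-dependent kinases, only CCNG2, a cyclin of arrested cells, had an unadjusted p under 0.05, with a log2 fold change of -0.73. CCNA2, CDK5 and CDK1 had values of 0.44, 0.42 and 0.23, and CCND1, the D-type cyclin of most other tissues, one of -0.08. The median of these 9 genes was -0.01, and it was 0.14 against siNT replicate 1 alone and -0.28 with housekeeping centring. Upstream of the D-type cyclins, MYC and NOTCH1 had log2 fold changes of 0.88 and 0.85 (limma adjusted p = 0.139 and 0.165), and both siLEF1 arrays lay above both controls. They were the 2 of 12 genes of this list with an unadjusted p under 0.05, while PIM1 had a value of -0.41 and IKZF1 one of 0.38. The median of this list was 0.06, and it turned to -0.06 against siNT replicate 1 alone and to -0.20 with housekeeping centring.

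**Figure D5:**
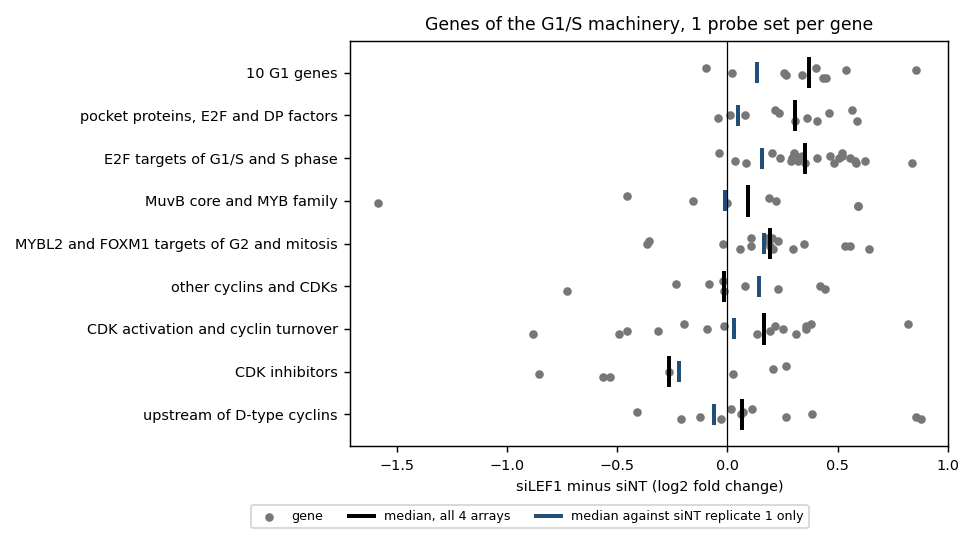
Log2 fold change siLEF1 minus siNT (horizontal axis) of each gene in the pathway lists (points, brightest probe set), with the list median over all 4 arrays (black) and against siNT replicate 1 only (blue). The black medians are highest for the 10 G1 genes and the S phase genes, 0.37 and 0.35, and lowest for CDK inhibitors, -0.27, and the blue medians of the former are 0.13 and 0.16; with centring on housekeeping genes every point would lie 0.26 further left.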

How the data were processed

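Expression was read with 4 arrays of the type HG-U133 Plus 2.0 (Affymetrix), 2 of siLEF1 and 2 of siNT cells, grouped by the sample labels. Per the submitters' processing notes, Expression Console 1.1 was used, and the authors' deposited values are log2 RMA signals, which are background-corrected, equalized between arrays and summarized per probe set. Equalizing makes array medians alike, so a shift shared by most genes would not show. Whether non-transfected cells were in the same RMA run is not given in the sources used here.

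After 62 control probe sets were left out, 54613 were tested with limma 3.58.1 (R 4.3.3, lmFit and eBayes, 2-sided, Benjamini-Hochberg) as siLEF1 minus siNT, without a filter. The number of arrays limits precision. Symbols came from the platform annotation, and 41037 of the 41091 probe sets with 1 symbol were matched to current RefSeq names by Entrez number. The 10 genes and the lists were chosen with earlier results of these data known. Every member probe set is named, and up to 4 genes per list by smallest p; CDC6, PCNA and CCND1 were chosen after their values were seen. Lists comprised pocket proteins, E2F and DP factors, S phase targets, mitotic targets, MuvB and MYB genes, CDK inhibitors, CDK activation and turnover, other cyclins, upstream genes, cell type markers and housekeeping genes (16 genes, median log2 fold change 0.08). Marker list medians were 0.26 for T-cell, 0.05 for B-cell, -0.17 for myeloid, -0.50 for erythroid and 0.01 for epithelial and stromal genes. A comparison of protein sequences was not made, as no protein table was used here. The model was tested on simulated data with independent noise of equal spread in both groups. That setting did not cover replicates that lie further apart in 1 group, as those of siNT did here.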

Additional observations from a re-analysis of the deposited data

How the results depend on the processing

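Under a signal filter (mean log2 value over 6), an intensity trend with robust variances, an F test without moderation, median centring, removal of _x_at and _s_at probe sets, and fold thresholds of 1.5 and none, 0 of the G1 probe sets were called in either direction. The fold thresholds could not add a call, because the smallest limma adjusted p of the 26 was 0.103. Median centring could change little, as the array medians were already 4.84 to 4.85. Centring on housekeeping genes, which went past 0 for those genes as described above, called 1 lower, the CDK6 probe set 231198_at. It left 5 higher without overlap (5.31% of all). It turned 7 log2 fold changes below 0: CCND2 200951_s_at to -0.24, CCND3 1562028_at to -0.24, CCNE1 213523_at to -0.0076 and 242105_at to -0.041, CDK2 211803_at to -0.16, and E2F1 204947_at to -0.24 and 2028_s_at to -0.071. Over all probe sets, 100 lower and 13 higher calls became 1465 and 26 with that centring, 4 and 1 with the signal filter, 0 and 0 with the F test, and 130 and 20 with trend and robust variances. Of the 26, 5 had an unadjusted p under 0.05 with the signal filter, which kept 19 of them, and 2 with the F test, where 27.3% and 8.04% of all probe sets did. Without _x_at and _s_at sets, which left 17, 14 values were above 0 and 8 were higher without overlap, where 58.2% and 27.2% of all were.

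Leaving out 1 array at a time gave 0 to 1287 lower and 0 to 595 higher calls over all probe sets, and 0 to 3 higher calls among the 26, the 3 without siNT replicate 1. Those at an unadjusted p under 0.05 ranged from 3 to 17, values above 0 from 16 to 21, probe sets higher without overlap from 15 to 19 and lower from 4 to 9. The shares of all probe sets ranged from 6.75% to 23.8%, from 53.4% to 58.3%, from 38.9% to 42.7% and from 30.8% to 36.2%. The log2 fold change ranged from -0.078 to 0.12 for CCND2 200951_s_at, from -0.12 to 0.65 for CCND3 201700_at, from -0.25 to 0.31 for CCND3 1562028_at, from -0.11 to 0.55 for CCNE1 242105_at, from -0.032 to 0.23 for CDK2 211803_at, from -0.12 to 0.72 for CDK6 207143_at, from -0.21 to 0.25 for E2F1 204947_at and from -0.021 to 0.40 for E2F1 2028_s_at. The other 18 kept their sign.

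The replicate numbers are only shared labels, and the differences between replicates 1 and 2 correlated at -0.15 between the groups over all probe sets. With the replicate number as a block, 977 probe sets were lower and 120 higher, among them 2 of the 26, CDK6 224851_at and CCNE2 211814_s_at. A block with crossed numbers, added after the data were seen, called 763 lower and 159 higher, 1 of them among the 26. The causes of these changes were not tested.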
